A study of Mus musculus with 6 samples.

Results

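The facilitative hexose transporters of the Slc2a family were examined in hepatocytes with and without Xbp1. The members were the 10 genes Slc2a1, Slc2a2, Slc2a3, Slc2a4, Slc2a5, Slc2a6, Slc2a8, Slc2a9, Slc2a10 and Slc2a12, found by gene name among the 54532 genes of the deposited table. The family was selected on its gene names with results from the same XCKO and XCON libraries known, among them the high Slc2a4 counts in XCKO, so the differences of its members are given as a description and no p is attached to them. XCKO hepatocytes came from Xbp1ΔHep mice, in which Xbp1 is deleted in hepatocytes, and XCON hepatocytes from Xbp1FL/FL mice, whose Xbp1 alleles are floxed. All mice had a C57BL/6 background, were 32 to 34 weeks old and had been on a high-fat diet (HFD) for 26 weeks, so no group on normal chow stands beside them. Each group had 3 libraries of total RNA, with 26477489 to 27240079 counts in XCKO and 23919355 to 26502456 in XCON. The sources used here do not give the recombinase and its promoter, the deleted exons, the sex of the mice or whether each library is 1 mouse. The spread between libraries may in part be technical.

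SLC2A proteins carry hexoses across membranes down their concentration gradient. In liver the high-capacity transporter SLC2A2 (GLUT2) lets glucose in after a meal and out during fasting, and SLC2A9 (GLUT9) brings urate into hepatocytes for breakdown. SLC2A4 (GLUT4) is the insulin-responsive transporter of muscle and fat, where insulin moves it from storage vesicles to the cell surface. XBP1 acts in the unfolded protein response as a transcription factor, made active when IRE1 splices its mRNA.

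Xbp1 itself, whose deletion defines XCKO, had 1458, 1013 and 1558 counts in XCKO 1, 2 and 3, against 4453, 8021 and 9434 in XCON 1, 2 and 3. It was lower in each XCKO library than in each XCON library (log2 fold change −2.24 ± 0.29, SE, adjusted p of 0.00837 in edgeR's test). The summed level of 12 hepatocyte markers, all detected, was 105584 to 136142 CPM in XCKO and 77062 to 104393 CPM in XCON (CPM, counts scaled to a common library size by TMM, which equalises libraries on the bulk of their genes). Mitochondrial genes took 8.99% to 13.1% of counts in XCKO and 9.30% to 22.8% in XCON, where XCON 1 was the highest. The 8 red-cell markers summed to 407, 77.4 and 945 CPM in XCKO 1, 2 and 3, against 42.3 to 70.0 CPM in XCON. The 11 stellate cell markers, all detected, summed to 159 to 391 CPM in XCKO and 368 to 747 CPM in XCON. Of them 4 were called lower (adjusted p under 0.05), as were 4.05% of all tested genes, and their median log2 fold change was −1.32. The 8 cholangiocyte markers summed to 5.58 to 13.6 CPM in XCKO and 22.4 to 36.1 CPM in XCON, without overlap, and the 12 leukocyte markers to 21.0 to 123 CPM in XCKO and 70.2 to 148 CPM in XCON, with overlap; none of either list was called. The 10 endothelial markers summed to 529 to 1056 CPM in XCKO and 706 to 720 CPM in XCON. Over the tested markers of the other lists, the median log2 fold change was 0.47 for hepatocytes, 0.06 for endothelium and 4.45 for red cells. It was −0.995 for macrophages, −1.83 for cholangiocytes and −1.31 for leukocytes. The part of these cells in the members' values was not tested.

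The 5′ flanks of 3 members are shown because XBP1 is a DNA-binding factor. Slc2a1 and Slc2a2 were higher in every XCKO library than in every XCON library, and Slc2a8 had the smallest difference of the tested members. Slc2a9 was also higher in every XCKO library, but its flank, which held none of the motifs searched, is not shown. The flank of Slc2a6, which held both CCACG and CCAAT, is not shown either. RefSeq windows (GRCm38.p6) were matched for 8 of the 10 members, all but Slc2a3 and Slc2a4, and the 250 bases before the start were searched. Each sequence is given 5′ to 3′ on the strand of its gene, without bases that lie in an annotated exon. Capitals mark CCACG, the part of the ER stress element that XBP1 can bind, CCAAT, the other part of that element, and GGGCGG, the GC box, on either strand, so that CCAAT may read ATTGG and GGGCGG may read CCGCCC. The windows lie at chr4:119108495-119108710 on the plus strand for Slc2a1, chr3:28697653-28697902 on the plus strand for Slc2a2 and chr2:32982084-32982333 on the minus strand for Slc2a8.
Slc2a1: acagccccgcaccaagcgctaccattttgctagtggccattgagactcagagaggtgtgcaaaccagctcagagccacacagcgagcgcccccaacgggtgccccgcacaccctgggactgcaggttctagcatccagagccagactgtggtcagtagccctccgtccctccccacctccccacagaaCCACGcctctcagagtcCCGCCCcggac
Slc2a2: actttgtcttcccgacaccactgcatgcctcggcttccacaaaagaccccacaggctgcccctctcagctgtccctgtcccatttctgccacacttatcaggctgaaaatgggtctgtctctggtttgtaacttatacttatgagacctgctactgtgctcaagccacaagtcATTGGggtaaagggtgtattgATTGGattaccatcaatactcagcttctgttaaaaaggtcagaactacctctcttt
Slc2a8: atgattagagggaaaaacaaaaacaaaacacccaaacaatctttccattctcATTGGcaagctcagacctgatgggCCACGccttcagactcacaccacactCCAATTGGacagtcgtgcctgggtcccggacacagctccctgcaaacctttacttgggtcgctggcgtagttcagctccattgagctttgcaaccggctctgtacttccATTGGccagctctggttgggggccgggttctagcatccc

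CCACG was present in the flanks of 3 members with 1 match each, Slc2a1 (beginning 62 bases before the start), Slc2a6 (194) and Slc2a8 (174). Of all 32851 RefSeq windows of this length, 28.3% held it. Slc2a2, the most abundant member, had no CCACG and 2 CCAAT matches, 77 and 56 bases before its start. Slc2a8 had 4 CCAAT matches, of which a pair at 148 and 145 bases overlap, and 33.8% of all windows held this motif. The full ER stress element has CCAAT before CCACG on the same strand at a set spacing, and none of the flanks shown holds that order. The longer XBP1 motif TGACGTG, found in 1.65% of windows, and the E-box CACGTG (6.02%), which the carbohydrate-response factor ChREBP binds as part of a longer element, were in none of the 8. ACGTG (16.6% of windows) was in Slc2a1 alone, 36 bases before its start, where its bases run into an annotated exon. TATAAA, the TATA box (12.4% of windows), was in none. A pattern looser than the MEF2 element, with any base allowed in its core (3.20% of windows), was in Slc2a10 and Slc2a12. Both matches held G in that core, and neither is taken as a MEF2 element. GGGCGG (32.7% of windows) was in Slc2a1, Slc2a5, Slc2a6 and Slc2a10. The Slc2a9 window held none of the motifs and lies upstream of a start well inside the gene.

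Transcript levels were compared between genes as the authors' deposited FPKM, which divides counts by gene length. Its library scaling is not that of total counts. Slc2a2 had 11929 of 27240079 counts in XCKO 3 and 11143 of 25160826 in XCON 2, yet 91.1 and 68.0 FPKM. Group differences in FPKM, that of the summed FPKM included, therefore depend on the scaling, while shares and ratios within a library do not. Slc2a2 was far the most abundant, with 101, 84.8 and 91.1 FPKM in XCKO 1, 2 and 3, against 59.4, 68.0 and 62.6 FPKM in XCON 1, 2 and 3. It made up 70.9% to 76.7% of the family's summed FPKM in XCKO and 74.6% to 78.8% in XCON. The summed FPKM of the 10 members was 126 ± 5.9 in XCKO and 82.4 ± 8.0 in XCON (SD, n = 3 each), and Slc2a2 accounts for most of both sums. Slc2a9 came next in every library and Slc2a1, the basal glucose transporter of most cell types, ranked next on mean FPKM. In XCKO the ranges of Slc2a1 and Slc2a4 overlapped, at 7.42 to 7.97 and 6.81 to 7.49 FPKM, although Slc2a1 was the higher of the pair in each library. In XCON the order below Slc2a1 differed, since Slc2a8, at 3.02 to 4.39 FPKM, lay above Slc2a4, at 0.638 to 1.29 FPKM, in each library. Slc2a9 and Slc2a1 overlapped in their XCON ranges, as did Slc2a8 and Slc2a5, while Slc2a6 and Slc2a3 overlapped in both groups.

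**Figure D1:**
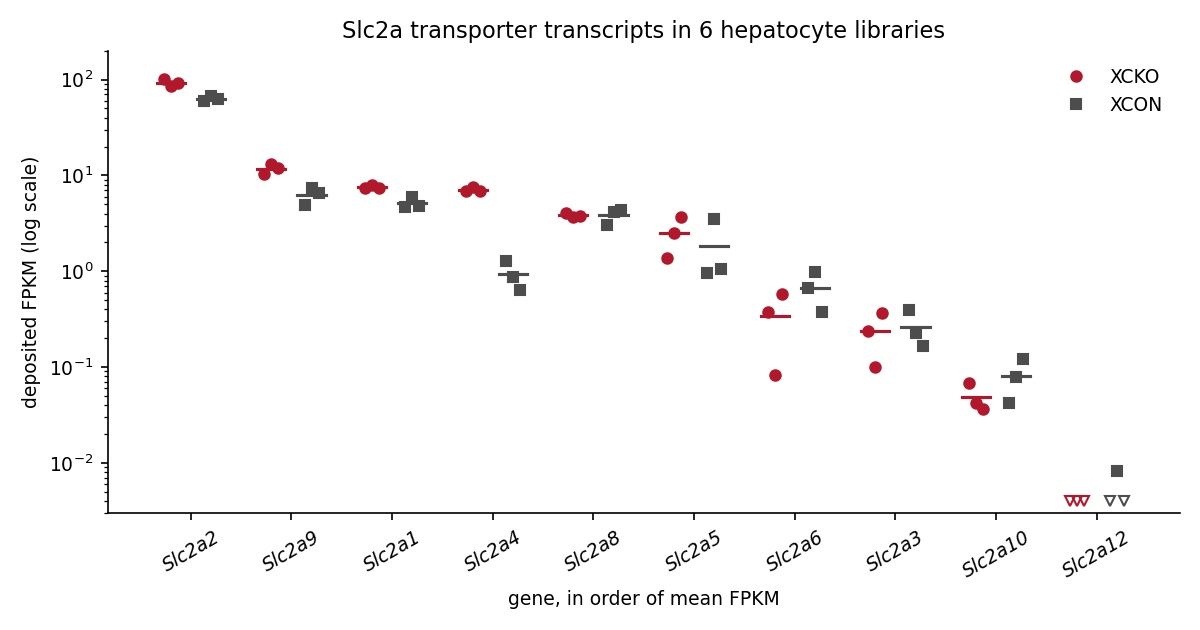
Deposited FPKM on a log axis for each of the 10 members, in order of mean FPKM, with 1 point per library (circles XCKO, squares XCON), bars at the group means and open triangles for libraries listed at 0. Slc2a4 is the member whose XCKO points, at 6.81 to 7.49 FPKM, lie farthest above its XCON points, at 0.638 to 1.29 FPKM.

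Of the 10 members, 8 passed the filter on low counts and entered a fit over all 14873 genes that passed (edgeR's quasi-likelihood test, called at a Benjamini-Hochberg adjusted p of 0.05). Among those genes 9.27% of genes were called, 5.21% higher and 4.05% lower in XCKO. Of the 8 tested members, Slc2a4 and Slc2a9 were called higher, 0 were called lower and 6 were not called. All XCKO libraries lay above all XCON libraries for 4 members (Slc2a1, Slc2a2, Slc2a4 and Slc2a9), as they did for 17.6% of tested genes. The reverse held for none of the 8, and for 18.1% of tested genes. Because these libraries were known when the family was chosen, the counts describe the members and nothing is read from their share. The median log2 fold change (XCKO over XCON) was 0.45 over the 8 members and −0.05 over all tested genes. Over the 12 hepatocyte markers it was 0.47, with 1 called higher, so a shift of this size is not particular to the members. Scaling by total counts alone called 326 genes higher and 2032 lower, in place of 775 and 603, and the median of all genes was then −0.31, a shift of −0.26. With 1 library left out, 178 to 523 genes were called higher and 131 to 287 lower, the fewest without XCKO 3.

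Slc2a4 (ENSMUSG00000018566, protein-coding, mm10 chromosome 11, 69942539 to 69948188, minus strand) rose most among the members. It had 585, 685 and 539 counts in XCKO 1, 2 and 3, against 120, 87 and 66 in XCON 1, 2 and 3. Every XCKO library lay above every XCON library, and the lowest XCKO count was more than 4 times the highest XCON count. In CPM it averaged 24.5 ± 1.8 in XCKO and 3.35 ± 1.2 in XCON (SD, n = 3 each). XCKO was 7.34-fold higher, a log2 fold change of 2.88 ± 0.25 (SE), and 19 of the tested genes had a larger one, 10 of them called. Relative to the median of all genes the difference was 2.93 with TMM and 2.93 with total counts. Slc2a4 was called under all 14 alternative settings, with log2 fold changes of 2.62 (total counts) to 3.18 (without XCON 1). These refits reuse the libraries in which Slc2a4 was already known to be high, so they describe and are not separate results. The authors' deposited table gives a log2 fold change of 2.92 for it, the same as DESeq2 gave here.

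Shares of the family's FPKM and ratios between members were also read within each library. Slc2a4 made up 5.18%, 6.26% and 5.42% of the family's FPKM in XCKO 1, 2 and 3, against 1.71%, 0.964% and 0.790% in XCON 1, 2 and 3. Slc2a2 FPKM was 14.8, 11.3 and 13.4 times that of Slc2a4 in XCKO 1, 2 and 3, against 46.1, 77.4 and 98.2 times in XCON 1, 2 and 3. The ratio of Slc2a4 to Slc2a1 FPKM was 0.916 to 0.939 in XCKO and 0.133 to 0.276 in XCON. In XCKO the transcript of the muscle and fat transporter was close in level to that of the basal transporter, and far below Slc2a2.

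**Figure D2:**
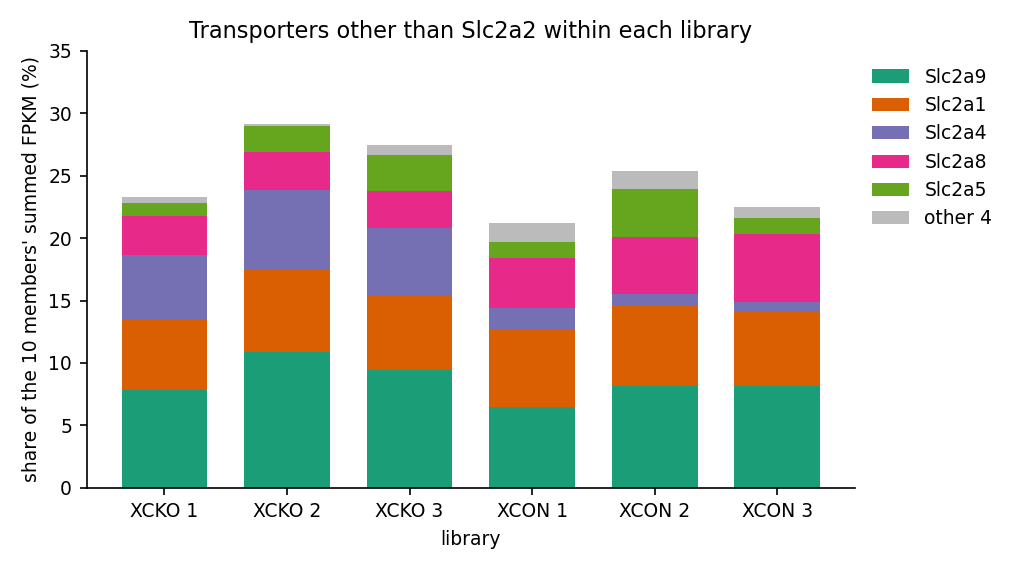
Share (%) of the 10 members' summed FPKM held by each transporter other than Slc2a2 in each library, as stacked bars. The Slc2a4 segment is 5.18% to 6.26% in the XCKO bars and 0.790% to 1.71% in the XCON bars, while the Slc2a1 segment is 5.66% to 6.66% and 5.94% to 6.47%.

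Muscle and fat are the tissues where Slc2a4 is abundant, so their markers were read in the same libraries. Of 14 muscle markers, 3 (Ckm, Myh6 and Myh7) had no read and the list summed to 2.52 to 4.61 CPM in XCKO and 5.13 to 6.90 CPM in XCON. Of the adipocyte markers, Adipoq (adiponectin) had 3, 1 and 0 counts in XCKO 1, 2 and 3 and 0 in each XCON library, Plin1 (perilipin 1) had 1 count in XCKO 2 and 0 elsewhere, and Lep (leptin) had none. The 10 adipocyte markers nevertheless summed to 104 to 315 CPM in XCKO and 52.0 to 70.8 CPM in XCON, of which Cfd (adipsin) alone had 226, 54.6 and 177 CPM in XCKO 1, 2 and 3, against 2.31, 5.46 and 0.980 CPM in XCON 1, 2 and 3. Of the 5 adipocyte markers tested, Cfd was called higher and Aqp7, a glycerol channel with 11, 8 and 10 counts in XCKO 1, 2 and 3, against 56, 63 and 27 in XCON 1, 2 and 3, was called lower. The other 3 were not called, and the median log2 fold change of the 5 was 0.40. Cfd and the red-cell markers were lowest among the XCKO libraries in XCKO 2, where Slc2a4 was highest, at 26.6 CPM; their part in the Slc2a4 values was not tested. In bulk RNA fewer cells of a type and less RNA per cell cannot be told apart.

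Slc2a9 (ENSMUSG00000005107, chromosome 5, 38349273 to 38503143, minus strand) was the other called member. It had 1287, 1745 and 1374 counts in XCKO 1, 2 and 3, against 668, 1070 and 996 in XCON 1, 2 and 3. The groups did not overlap, with XCON 1 the lowest and XCKO 2 the highest. Its level was 59.7 ± 7.8 CPM in XCKO and 32.9 ± 6.8 CPM in XCON (SD, n = 3 each), a log2 fold change of 0.86 ± 0.19 (SE). The call was lost with total counts (log2 fold change 0.60) and without XCKO 2, XCKO 3, XCON 1 or XCON 3, where log2 fold changes were 0.72 to 0.89. As a ratio to Slc2a2 in the same library, Slc2a9 FPKM was 0.102 to 0.154 in XCKO and 0.0826 to 0.109 in XCON, and these ranges overlap.

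Slc2a2 (ENSMUSG00000027690, chromosome 3, 28697903 to 28731359, plus strand) had 14322, 12841 and 11929 counts in XCKO 1, 2 and 3, against 9160, 11143 and 10719 in XCON 1, 2 and 3. Scaled, that is 531 ± 43 CPM in XCKO and 374 ± 30 CPM in XCON (SD, n = 3 each), with the lowest XCKO library, 498 CPM, above the highest XCON library, 408 CPM. The log2 fold change was 0.50 ± 0.17 (SE), or 1.42-fold, and was not called. With total counts it was 0.24, and relative to the median of all genes 0.55 under both scalings. Slc2a1 (ENSMUSG00000028645, chromosome 4, 119108711 to 119137983, plus strand) had 644, 735 and 592 counts in XCKO 1, 2 and 3, against 439, 588 and 500 in XCON 1, 2 and 3. The raw counts come close to overlapping and the CPM values, 25.6 to 28.5 in XCKO and 16.9 to 21.6 in XCON, stand further apart. Its log2 fold change of 0.53 ± 0.15 (SE) was likewise not called, and was 0.27 with total counts. Slc2a1 was called in 3 of the 14 alternatives (size factors, no filter and DESeq2) and Slc2a2 in DESeq2 alone. The authors' deposited table calls both, with log2 fold changes there of 0.57 and 0.54. DESeq2 gave the same values here, so the DESeq2 calls and the deposited calls are not separate results. The ratio of Slc2a1 to Slc2a2 FPKM was 0.0738 to 0.0940 in XCKO and 0.0766 to 0.0866 in XCON, and these ranges overlap.

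**Figure D3:**
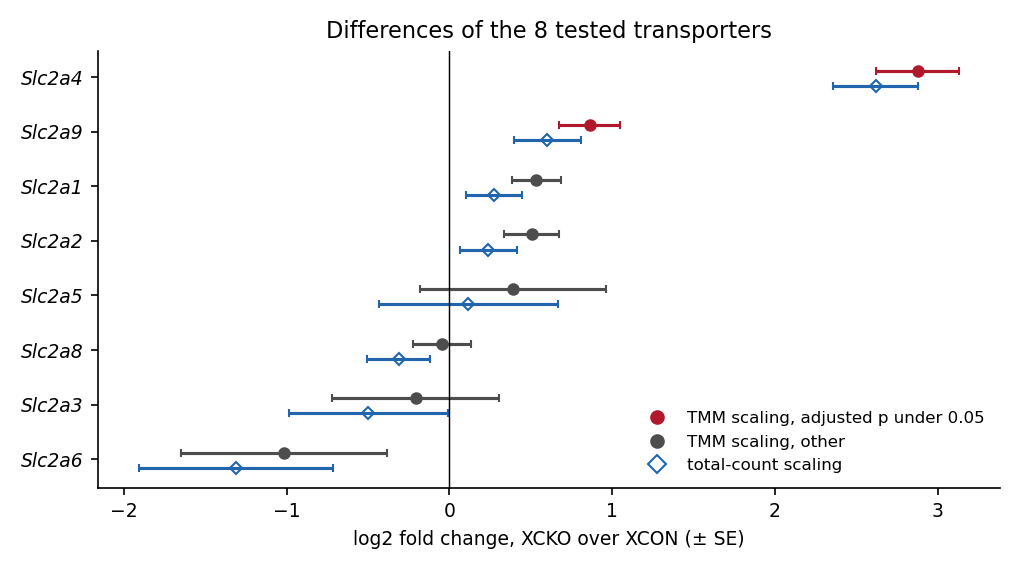
Log2 fold change (XCKO over XCON) with SE for the 8 tested members under TMM scaling (circles, red where called) and total-count scaling (open diamonds). Slc2a4 stands at 2.88, Slc2a9, Slc2a1 and Slc2a2 at 0.50 to 0.86 and Slc2a8 at −0.04 with TMM.

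Slc2a8 (GLUT8, chromosome 2, 32972990 to 32982083, minus strand), an intracellular hexose transporter, had 323, 308 and 275 counts in XCKO 1, 2 and 3, against 260, 379 and 419 in XCON 1, 2 and 3. Its groups overlapped, and its log2 fold change was −0.04 ± 0.18 (SE) with TMM and −0.31 with total counts. Slc2a5 (GLUT5, chromosome 4, 150119283 to 150144169, plus strand) is the fructose transporter. Between libraries of the same group it varied more than any other member above 1 FPKM (pooled SD of log2 CPM 0.887). It had 115, 222 and 282 counts in XCKO 1, 2 and 3, against 88, 339 and 107 in XCON 1, 2 and 3. XCON 2 was the highest of all 6 in CPM (12.4), and without it the log2 fold change was 1.28 rather than 0.39 ± 0.57 (SE), not called either way.

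Slc2a6 (GLUT6, chromosome 2, 27021363 to 27027998, minus strand), a lysosomal family member found in macrophages, had 30, 7 and 42 counts in XCKO 1, 2 and 3, against 57, 89 and 36 in XCON 1, 2 and 3. The log2 fold change was −1.02 ± 0.63 (SE), with overlapping groups. Slc2a3 (GLUT3, chromosome 6, 122727809 to 122801640, minus strand), the high-affinity transporter of neurons and white blood cells, had 43, 19 and 61 counts in XCKO 1, 2 and 3, against 77, 47 and 36 in XCON 1, 2 and 3, and a log2 fold change of −0.21 ± 0.51 (SE). Slc2a3 shares its span with the pseudogene Gm4482 (20 to 50 counts), so its low counts are uncertain. Both members were lowest in XCKO 2. There the 12 macrophage markers, all detected, were also lowest, at 462 CPM, against 1137 and 1308 CPM in XCKO 1 and 3 and 1329 to 2601 CPM in XCON. The part of macrophage RNA in the Slc2a6 and Slc2a3 values was not tested.

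Slc2a10 (chromosome 2, 165503787 to 165519917, plus strand) and Slc2a12 (chromosome 10, 22645011 to 22704285, plus strand) did not pass the filter. Slc2a10 had 6, 4 and 3 counts in XCKO 1, 2 and 3, against 4, 8 and 13 in XCON 1, 2 and 3. Slc2a12 had 0 in each XCKO library and a single count in XCON 2, and the 0 allows up to 3 counts a library. At this depth no difference in either was detectable. Slc2a12 overlaps Tbpl1 (129 to 209 counts) on the other strand, and Slc2a1 and Slc2a2 overlap antisense genes of at most 8 and 13 counts.

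The 4 members whose groups did not overlap were followed through the alternative settings. Slc2a4 stayed above the other 3 in all of them.

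**Figure D4:**
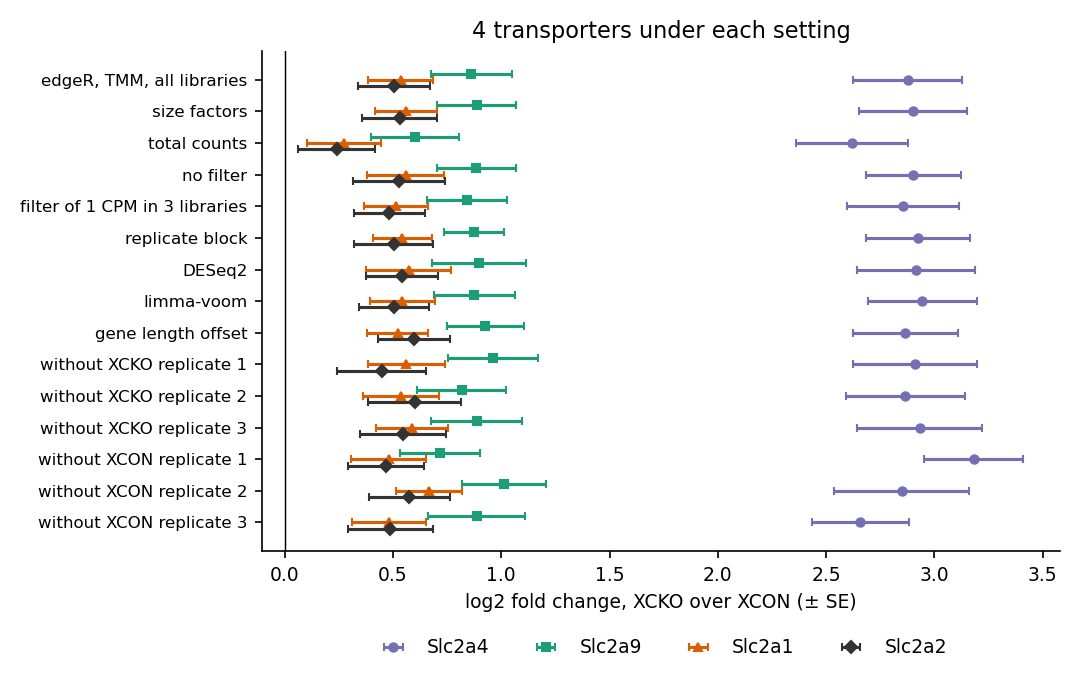
Log2 fold change (XCKO over XCON) with SE of Slc2a4, Slc2a9, Slc2a1 and Slc2a2 under the fit used in the text (top row) and the 14 alternatives. Slc2a4 runs from 2.62 to 3.18, Slc2a9 from 0.60 to 1.01, and Slc2a1 and Slc2a2 from 0.24 to 0.67.

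Genes whose log2 CPM followed Slc2a4 most closely over the 6 libraries were Fn3k (fructosamine 3-kinase, Pearson r = 0.998), Txnrd2 (mitochondrial thioredoxin reductase, 0.998), the pseudogene Rpsa-ps2 (0.997), L3hypdh (0.995) and Rcc1l (0.994). For Slc2a2 they were Noa1 (0.996), Cr1l (0.993), the zinc transporter gene Slc39a1 (0.993), Hcn3 (0.991) and Hsd17b12 (0.990). With 2 groups of 3, such an r ranks likeness mainly of the group difference, and no p is given.

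Of all tested genes 5.21% were called higher and 4.05% lower, against which the counts of each gene list are to be read. With the tested genes split into 10 groups by length, the median log2 fold change fell steadily from 0.21 in the shortest to −0.25 in the longest. The gene length offset, an alternative setting, adjusts for this trend. The part of gene length in the list medians was not tested. Of 30 genes that store, sort and release SLC2A4 vesicles, all tested, 1 rose, 1 fell and 28 were not called, with a median log2 fold change of −0.19, against −0.05 for all tested genes. Vamp8, an endosomal SNARE, rose to 62.9 ± 9.7 CPM in XCKO, against 40.9 ± 3.0 CPM in XCON (SD, n = 3 each), with a log2 fold change of 0.62 and an adjusted p of 0.0419 in edgeR's test. Cbl, a ubiquitin ligase and adaptor, fell to 25.3 ± 4.0 CPM in XCKO, against 44.0 ± 5.1 CPM in XCON (SD, n = 3 each), with a log2 fold change of −0.80 and an adjusted p of 0.0245 in the same test. Vamp8 lost its call with total counts and without any 1 of the libraries, and Cbl without XCKO 2, XCKO 3, XCON 1 or XCON 2. Both lost it with the gene length offset and with the replicate number as a block. Of 19 genes from the insulin receptor to AKT, 0 were called in either direction (median −0.11), and Insr, the receptor and the most abundant, had 192 ± 26 CPM in XCKO and 162 ± 30 CPM in XCON (SD, n = 3 each). None of 13 genes for endocytosis and recycling of transporters was called (median −0.02), and Arrdc3, the most abundant, had a log2 fold change of 0.17 ± 0.31 (SE).

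Of 24 factors known from muscle or fat to act on Slc2a4 transcription, 23 were tested, 2 rose, 2 fell and 19 were not called (median −0.03). Srebf1, the main transcription factor of lipogenesis, rose to 1275, 1851 and 1678 CPM in XCKO 1, 2 and 3, against 535, 805 and 573 CPM in XCON 1, 2 and 3 (log2 fold change 1.33 ± 0.24, SE, adjusted p of 0.0166 in edgeR's test). Cebpa, a factor of hepatocyte and adipocyte differentiation, rose to 509 ± 88 CPM in XCKO, against 246 ± 59 CPM in XCON (SD, n = 3 each), with an adjusted p of 0.0300 in the same test. Mef2a, a muscle factor that binds the Slc2a4 promoter in mouse muscle, fell to 37.2, 28.4 and 32.0 CPM in XCKO 1, 2 and 3, against 48.6, 48.2 and 48.8 CPM in XCON 1, 2 and 3 (log2 fold change −0.58, adjusted p of 0.0408 in edgeR's test). The fourth, Nfkb1 (−0.59, adjusted p of 0.0487 in edgeR's test), is outside the naming rule and was picked once its values were known. Mef2a lost its call with the gene length offset, with the replicate number as a block and without any 1 of the libraries. Cebpa lost its call without XCKO 2, XCKO 3, XCON 1 or XCON 3, and Srebf1 without XCKO 3 or XCON 3. Of 17 liver factors around Slc2a2, a list that shares Srebf1 and Cebpa with the one before, those 2 rose, 0 fell and 15 were not called (median 0.17).

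Of 18 genes for the first glucose, fructose and galactose steps inside the cell, 3 rose, 0 fell and 15 were not called (median 0.24), where 5.21% of all tested genes rose. Without XCKO 3 the count was 1. Galk1, the galactose kinase, rose to 74.0, 58.6 and 74.2 CPM in XCKO 1, 2 and 3, against 29.3, 23.0 and 29.9 CPM in XCON 1, 2 and 3 (log2 fold change 1.33 ± 0.17, SE, adjusted p of 0.00823 in edgeR's test). Khk, which phosphorylates fructose, rose to 756 ± 153 CPM in XCKO, against 352 ± 9.4 CPM in XCON (SD, n = 3 each), with an adjusted p of 0.0175 in the same test. Slc37a4, the carrier that takes glucose 6-phosphate into the ER, rose by a log2 fold change of 0.87 (adjusted p of 0.0363 in edgeR's test). Galk1 was called under all 14 alternatives. Khk lost its call with the replicate number as a block and without XCKO 3. Slc37a4 lost its call with total counts, the gene length offset and the replicate block, and without any 1 library but XCON 2.

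Beside Slc2a9, 14 genes of urate production, breakdown and transport were read, of which 11 were tested, 2 rose, 0 fell and 9 were not called (median 0.34). Uox, the urate oxidase that mice retain, rose to 2000, 1589 and 2484 CPM in XCKO 1, 2 and 3, against 1031, 995 and 1163 CPM in XCON 1, 2 and 3 (log2 fold change 0.93 ± 0.22, SE, adjusted p of 0.0342 in edgeR's test). Urah, the next enzyme of the pathway, had a log2 fold change of 0.75 (adjusted p of 0.0436 in edgeR's test). Both lost their calls with total counts, with the replicate number as a block and without most single libraries. With 1 library left out, Uox was called without XCKO 2 alone and Urah without XCON 3 alone. Urah also lost its call with the gene length offset. Of 15 other sugar carriers, 6 were tested and 0 were called (median −0.39), with Slc45a3 the most abundant at 53.3 ± 24 CPM in XCKO and 59.1 ± 31 CPM in XCON (SD, n = 3 each). The family members Slc2a7, with no read in any library, and Slc2a13, with 6 to 16 counts in XCKO and 14 to 20 in XCON, are among them. Of 14 reported XBP1 target genes, Xbp1 itself included, 0 rose, 6 fell and 8 were not called (median −0.54), with Sdf2l1 at 15.8 ± 1.2 CPM in XCKO and 39.9 ± 5.3 CPM in XCON and Dnajb9 at 35.7 ± 2.3 CPM in XCKO and 91.4 ± 30 CPM in XCON (SD, n = 3 each). Dnajb9 lost its call without XCKO 3.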

How the data were processed

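The authors deposited 1 table with raw counts per Ensembl gene, FPKM, group means (a signal of counts divided by size factors), log2 fold changes and p-values with adjusted p-values, per the file headers; the sources used here do not give the counter, strand setting or testing tool. The deposited log2 fold changes of the tested members match those of DESeq2 as run here, with 2.92 for Slc2a4 in both. Bowtie 0.12.2, mm8 and mm10 are listed, with no roles, per the submitters' processing notes. All 10 members have the start and end of GENCODE M21 on GRCm38 (mm10), as have 98.3% of the 99.8% of identifiers found there.

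Counts were filtered with filterByExpr, scaled by TMM and tested with edgeR 4.0.16 (R 4.3.3, robust glmQLFit and glmQLFTest) on group alone over all 6 libraries; SE is the absolute log2 fold change over the square root of F. The fit was run on simulated counts with a common dispersion for all genes, as a check of the code. That run does not bear on how reliable the calls given here are. Alternatives were size factors, total counts, no filter, 1 CPM in 3 libraries, the replicate number as a block, DESeq2 1.42.0, limma-voom (limma 3.58.1), a lowess offset on gene length, and each library left out. The members, the gene lists and the settings were chosen with earlier results of these data known. All 10 members are named, with up to 3 called genes per list with the smallest p, or the most abundant where none was called, and the 5 genes most correlated with Slc2a4 and Slc2a2 (prior count 2, no Gm or Rik names). Of the marker lists, the genes of this rule are named for adipocytes alone. Named outside the rule are Nfkb1, Slc2a7, Slc2a13, genes that overlap members, and muscle and adipocyte markers with few or no reads. RefSeq proteins were not used here.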

Additional observations from a re-analysis of the deposited data

How the results depend on the processing

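Of the members, Slc2a4 kept its direction and call under all alternatives run, which reuse the same libraries and are not separate results. The members called higher numbered 2 in the report, 1 with total counts, 3 with size factors and 3 with no filter (with Slc2a1), 4 with DESeq2 and 1 to 2 with 1 library left out. Total counts moved the log2 fold changes of Slc2a1 to 0.27, Slc2a2 to 0.24, Slc2a8 to −0.31 and Slc2a9 to 0.60, by its own construction, since it shifts all genes. With 1 library left out, the log2 fold change ran from 0.062 to 1.28 for Slc2a5 and from −0.64 to 0.22 for Slc2a3.

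Over the whole table, 775 higher and 603 lower calls became 326 and 2032 with total counts, 1185 and 975 with no filter, 1366 and 1158 with DESeq2, and 178 to 523 and 131 to 287 with 1 library left out. The fewest in both directions came without XCKO 3. Of the genes in the 9 lists, 8 higher and 9 lower became 4 and 27 with total counts, 16 and 15 with DESeq2, and 1 to 6 and 3 to 7 with 1 library left out; 14 were higher with no filter and 5 lower with the gene length offset. The cause of these changes was not tested.

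The labels number the replicates 1 to 3 in both groups and do not say whether same-numbered libraries belong together. Their deviations from the group means had r = 0.055, 0.076 and −0.17 for replicates 1, 2 and 3. From groups this small, these r cannot decide whether the libraries were paired. With the replicate block 220 genes were higher and 102 lower, with 3 and 4 of the list genes, and the members called were 2. Cbl, Vamp8, Mef2a, Nfkb1, Khk, Slc37a4, Uox and Urah were not called with the block. Counts limit Slc2a12 most, with at most 1 in any library, then Slc2a10, and Slc2a3 and Slc2a6, with at most 89.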
